A study of Mus musculus with 6 samples.

Results

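Wnt signalling was described here through 50 genes: 15 Wnt ligands, 12 receptors (10 Frizzleds with Lrp5 and Lrp6), 9 inhibitors and inhibitor receptors, 8 genes of the R-spondin axis and 6 feedback targets or TCF/LEF factors. They were taken by symbol from a fixed list, whatever their level, and all 50 were found among the 56941 gene IDs of the series. The libraries came from CD31-selected cells of mouse lung on postnatal day 7, when alveoli are forming. In the room air group (3 libraries) the pups had breathed 21% oxygen, and in the hyperoxia group (3 libraries) 75% oxygen from postnatal day 0. The labels give neither strain nor genotype, and do not say whether a library is a single pup or a pool, so p-values reflect only how these libraries spread, which may be technical.

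Wnt proteins are secreted, lipid-modified signals. They bind a Frizzled receptor together with Lrp5 or Lrp6 at the cell surface, which stops the destruction of beta-catenin and lets it switch on target genes with TCF/LEF factors. Secreted inhibitors such as Wif1 and the Sfrp proteins catch Wnts before they reach a receptor, while R-spondins and their Lgr receptors keep the ubiquitin ligases Znrf3 and Rnf43 from removing Frizzleds. In the lung, Wnts pass between epithelium, mesenchyme and endothelium during development, and in endothelium Fzd4 is the receptor of norrin.

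Of the 50 genes, 45 had enough reads to be tested. By edgeR's quasi-likelihood test with Benjamini-Hochberg adjustment over 17072 genes, 7 rose in hyperoxia, 1 fell and 37 did not pass an adjusted p of 0.05. The 8 calls are 17.8% of the genes tested here, and 11.2% of all genes tested were called (6.77% higher and 4.41% lower). The list was chosen with earlier results of these data known, so these shares are a description and not a test. The genes that rose were the ligands Wnt7a, Wnt9a and Wnt10b, the receptors Fzd1, Fzd2 and Fzd5, and the inhibitor Sfrp2, and the gene that fell was the inhibitor Wif1. Their IDs in the table are ENSMUSG00000030093 (Wnt7a), ENSMUSG00000000126 (Wnt9a), ENSMUSG00000022996 (Wnt10b), ENSMUSG00000044674 (Fzd1), ENSMUSG00000050288 (Fzd2), ENSMUSG00000045005 (Fzd5), ENSMUSG00000027996 (Sfrp2) and ENSMUSG00000020218 (Wif1). The groups did not overlap at 14 of the 45 genes with hyperoxia above and at 3 with room air above, where 30.9% of all genes tested did not overlap (16.5% and 14.4%). The median log2 fold change was 0.13 for the 45 genes and -0.01 for all genes tested. Wnt6 was at or over the filter level in room air only.

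For the 3 ligands that rose and for Wif1, the only gene of the list that fell, the 250 bases before the transcription start are shown from RefSeq (GRCm38.p6, 5′ to 3′ on the strand that the table gives), so that the letters before these ligands and before the gene that fell can be compared. A transcript with the bases that follow was found for the 3 ligands and not for Wif1, whose strand was therefore not checked. Capitals mark GC boxes (GGGCGG on either strand), the letters bound by factors of the Sp family.
Wif1 (chr10:121033754-121034003, plus strand): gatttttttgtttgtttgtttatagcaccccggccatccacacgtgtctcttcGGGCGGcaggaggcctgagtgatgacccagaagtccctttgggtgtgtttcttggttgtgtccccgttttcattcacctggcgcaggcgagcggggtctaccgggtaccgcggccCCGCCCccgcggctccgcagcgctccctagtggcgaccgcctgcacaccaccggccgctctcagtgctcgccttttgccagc
Wnt7a (chr6:91411354-91411603, minus strand): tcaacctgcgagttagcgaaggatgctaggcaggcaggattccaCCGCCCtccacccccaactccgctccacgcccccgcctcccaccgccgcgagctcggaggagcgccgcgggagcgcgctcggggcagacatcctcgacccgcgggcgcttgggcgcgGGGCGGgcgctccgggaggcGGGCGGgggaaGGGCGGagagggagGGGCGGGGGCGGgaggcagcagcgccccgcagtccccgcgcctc
Wnt9a (chr11:59306680-59306929, plus strand): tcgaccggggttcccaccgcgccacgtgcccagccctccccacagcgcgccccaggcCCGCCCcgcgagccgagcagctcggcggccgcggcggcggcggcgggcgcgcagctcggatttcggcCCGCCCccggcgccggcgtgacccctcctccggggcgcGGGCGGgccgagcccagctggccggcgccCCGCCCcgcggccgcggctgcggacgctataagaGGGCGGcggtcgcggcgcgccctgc
Wnt10b (chr15:98778151-98778400, minus strand): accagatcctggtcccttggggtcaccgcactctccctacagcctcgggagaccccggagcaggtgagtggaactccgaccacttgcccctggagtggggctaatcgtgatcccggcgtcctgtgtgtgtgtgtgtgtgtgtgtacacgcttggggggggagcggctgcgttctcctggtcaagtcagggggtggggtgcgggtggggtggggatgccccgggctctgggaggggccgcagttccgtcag
The windows of Wnt7a and Wnt9a hold 6 and 5 GC boxes, that of Wif1 holds 2 and that of Wnt10b holds 0. Of the other genes that rose, the windows of Fzd1 and Sfrp2 hold 0 GC boxes and that of Fzd5 holds 9. Of 32851 windows of that length in the table, 32.7% hold a GC box, and of the 40 windows found for 32 of the 50 genes 67.5% do. Windows of Wnt7a and Wnt9a were 77.6% and 84.4% G or C, against a median of 52.4% over the table, and those of Wif1 and Wnt10b were 62.8% and 66.8%. The core letters of TCF/LEF sites (CTTTGAA or CTTTGAT, either strand) were in none of these 4 windows. They were in 1 window each of Wnt5b, Wnt11 and Dkk1, which is 7.5% of the 40 windows, and in 7.48% of all windows. A match is a description of letters, and 18 of the genes had no window in the table.

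Library properties that touch the results were as follows. Total counts ran from 39379793 to 42343192 per library. Markers of endothelium were abundant in every library (Pecam1, the gene for CD31, at 1932 to 3109 CPM, counts per 1e6 reads after scaling), but so were those of other lung cells: 7 alveolar type 2 markers summed to 12180.1 to 19070.5 CPM beside 11431 to 18656 CPM for 12 endothelial markers. Most of the type 2 sum was 1 gene, Sftpc, at 7650.4 to 12969.8 CPM, so these sums do not give shares of cells. Alveolar type 1 epithelium, the thin cells that line the air spaces, moved with the groups: all 8 of its markers rose (median log2 fold change 1.24), and their sum was 2145, 2426 and 3010.4 CPM in room air 1, 2 and 3 and 5163, 6772 and 5270.3 CPM in hyperoxia 1, 2 and 3. Room air 3 and hyperoxia 2 had the lowest endothelial sums of their groups, 13545 and 11431 CPM. Reads of 4 Y-linked genes were at most 0.0472 CPM in hyperoxia 1 and 3 and 129 to 162 CPM in the other 4 libraries, so the sex of the animals and the oxygen level differ together in part. A fit with a term for Y-linked reads and a fit on those 4 libraries alone both rest on hyperoxia 2 as the only hyperoxia library, so they are in essence the same comparison of 1 library with room air, and assume that it varies like the others. In such bulk samples, a change in the number of cells of a type and a change of RNA per cell cannot be told apart.

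**Figure D1:**
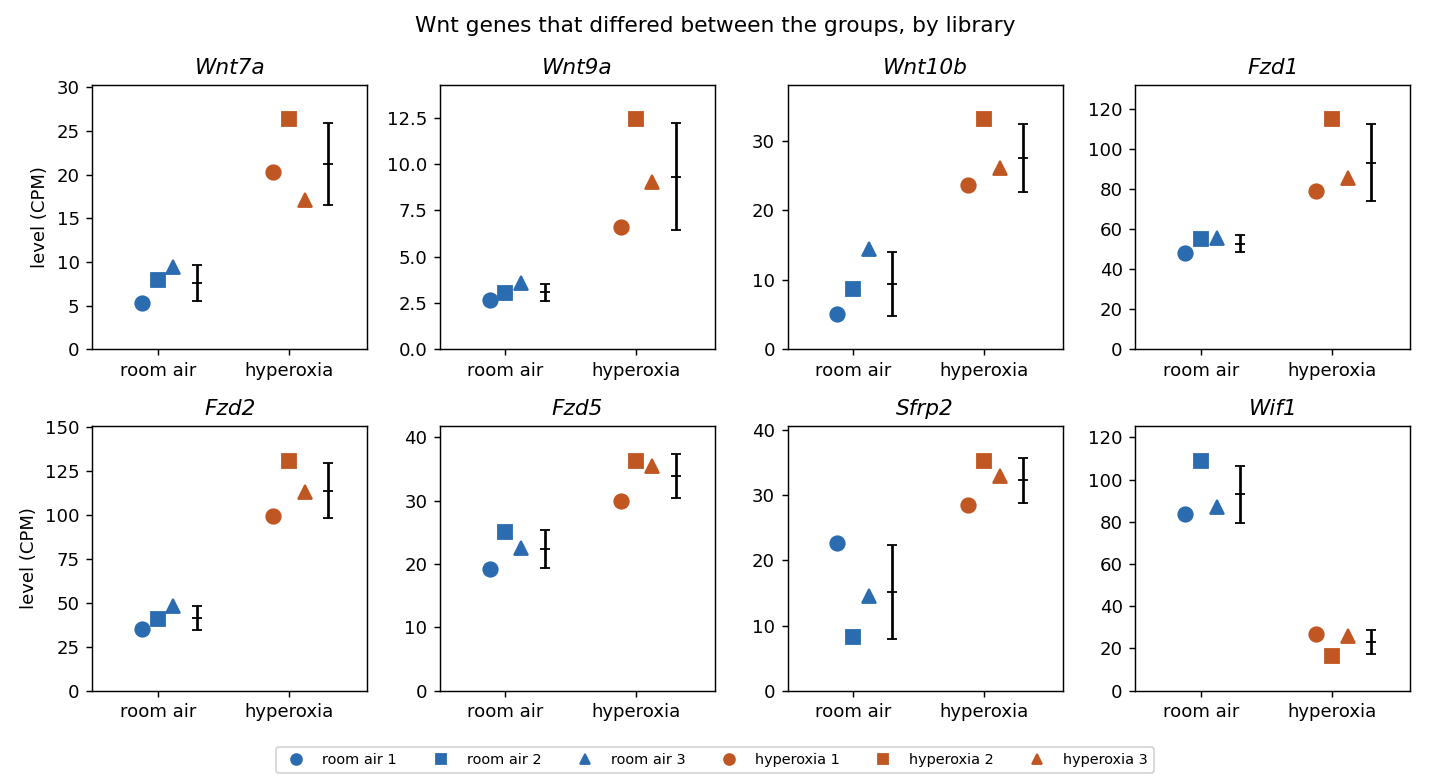
Level in CPM (vertical axes, from 0) of the 8 Wnt genes that differed between the groups, with a symbol per library and the mean and SD of 3 libraries as a bar beside each group. All 3 hyperoxia libraries lie above all 3 room air libraries for 7 genes, and below them for Wif1.

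Among the ligands, 3 of the 12 tested rose, 0 fell and 9 did not pass, where 11.2% of all genes tested were called. Each of the 3 that rose was close to 3 times its room air level. Wnt7a, a ligand of the epithelium that can act through beta-catenin, stood at 5.32, 7.91 and 9.41 CPM in room air 1, 2 and 3 and at 20.3, 26.3 and 17.1 CPM in hyperoxia 1, 2 and 3. Even the lowest hyperoxia library was thus well above the highest room air library, and the log2 fold change was 1.49 (SE 0.23, adjusted p = 0.00278). Wnt9a had 2.66, 3.04 and 3.57 CPM in room air and 6.59, 12.4 and 9.01 CPM in hyperoxia. Hyperoxia 2 was the highest library and the groups were apart (log2 fold change 1.59, SE 0.27, adjusted p = 0.00393). Wnt10b, a ligand that signals through beta-catenin, varied most in room air, with 5.15, 8.75 and 14.4 CPM, against 23.7, 33.1 and 26.1 CPM in hyperoxia. Its groups did not overlap either (log2 fold change 1.55, SE 0.30, adjusted p = 0.00845). With hyperoxia 2 alone against room air, Wnt10b had a log2 fold change of 1.79 on the 4 libraries with Y-linked reads. A term for such reads, the same comparison, gave 1.81.

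Wnt7b, the close relative of Wnt7a, stood at 11.1, 10.7 and 15 CPM in room air and 17.6, 21.2 and 17.3 CPM in hyperoxia. These groups did not overlap, but the adjusted p was 0.0504 (log2 fold change 0.60, SE 0.18), so it was not called. It was called under 7 alternatives, among them on leaving out room air 3 (adjusted p = 0.0185) or both room air 3 and hyperoxia 2 (0.0335), by DESeq2 (0.017) and by limma-voom (0.0464), and with a filter of 1 CPM (0.0488) or none (0.0117). The last was a term for Y-linked reads, with hyperoxia 2 alone against room air (log2 fold change 0.79). On the 4 libraries with such reads, the same comparison, the log2 fold change was 0.76 and Wnt7b was not called. Wnt5a, a ligand of the beta-catenin-independent branch made by mesenchyme, had a level of 10.4 ± 1.54 CPM in room air against 10.1 ± 2.52 CPM in hyperoxia (mean ± SD, n = 3 per group, also below), and its 95% interval for the log2 fold change ran from -0.51 to 0.44. Its relative Wnt5b was at 1.29 ± 0.198 CPM and 2.77 ± 1.44 CPM (log2 fold change 1.10, adjusted p = 0.126). Wnt11, which acts in the same branch, had 6.3 ± 1.38 and 5.52 ± 1.7 CPM (log2 fold change -0.19, adjusted p = 0.717). Wnt2, a ligand of lung mesenchyme, and Wnt9b were at 3.27 ± 0.934 and 3.89 ± 2.22 CPM in room air, against 2.45 ± 0.631 and 2.52 ± 0.667 CPM in hyperoxia, and their groups overlapped. Wnt2b, Wnt4 and Wnt6 stayed at group means of 1.55 CPM or less, without passing. Wnt3, Wnt10a and Wnt16 were under the filter, with at most 14 reads in any library.

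Per kilobase of exon, the scale on which genes can be compared, Wnt10b was the highest of the 15 listed ligands in hyperoxia with 8.13 ± 1.44 CPM per kb, followed by Wnt7a with 6.69 ± 1.48 CPM per kb. Wnt3a, a ligand outside the list, stood between them with 7.65 ± 0.786 CPM per kb. These levels lie within their spread of each other. In room air Wnt10b (2.77 ± 1.36 CPM per kb), Wnt7b (2.51 ± 0.489 CPM per kb) and Wnt7a (2.38 ± 0.652 CPM per kb) were not apart beyond their spread. All ligands listed were below Fzd4 (56.3 ± 8.95 CPM per kb in room air), whereas the lowest receptors, Fzd3, Fzd9 and Fzd10 (0.647, 1.16 and 0.293 CPM per kb in room air), were below these 3 ligands.

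Among the receptors, 3 of 12 rose, 0 fell and 9 did not pass, where 11.2% of all genes tested were called. All 3 that rose were Frizzleds, the seven-pass membrane proteins that bind Wnts. Fzd2 showed the largest change of the receptors, from 34.9, 41.1 and 48.2 CPM in room air to 99.4, 131 and 113 CPM in hyperoxia. Every hyperoxia library was more than 2 times the highest room air library (log2 fold change 1.47, SE 0.14, adjusted p = 0.000273). Fzd1, its close relative, stood at 48.0, 55.1 and 55.7 CPM in room air and 79.0, 115 and 85.9 CPM in hyperoxia. Here too the groups were apart, with hyperoxia 2 highest (log2 fold change 0.82, SE 0.15, adjusted p = 0.00502). Fzd5, a receptor used by epithelium, rose less, from 19.2, 25.1 and 22.5 CPM to 29.9, 36.3 and 35.5 CPM (log2 fold change 0.61, SE 0.14, adjusted p = 0.0192). On leaving out room air 1, hyperoxia 2 or hyperoxia 3, Fzd5 was no longer called (adjusted p of 0.0648, 0.0501 and 0.0859). Nor was it on leaving out hyperoxia 2 and room air 3 together (0.0761). Hyperoxia 2 as the only hyperoxia library gave a log2 fold change of 0.68 on the 4 libraries with Y-linked reads. A term for such reads, the same comparison, gave 0.7. In addition, 17.8% of the exonic bases of Fzd5 overlap another gene, Gm38058.

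Fzd4, the norrin receptor of endothelium, was at 399, 426 and 311 CPM in room air and 289, 234 and 313 CPM in hyperoxia. The groups overlapped, since room air 3 lay just below hyperoxia 3, and the log2 fold change of -0.44 (SE 0.15, 95% interval -0.78 to -0.10) had an adjusted p of 0.0969. Without room air 3, Fzd4 was called lower (log2 fold change -0.57, adjusted p = 0.0251), also without hyperoxia 2 and room air 3 together (-0.47, adjusted p = 0.0185) and by DESeq2 (-0.45, adjusted p = 0.0279). A term for Y-linked reads gave -0.69 (adjusted p = 0.047), which is hyperoxia 2 alone against room air, the library with the lowest endothelial sum, and the 4 libraries with Y-linked reads gave -0.72 (adjusted p = 0.084). The 12 endothelial markers had a median log2 fold change of -0.28 in the same comparison, with 1 called lower, and the part of this in the Fzd4 value was not tested. Fzd6, a receptor known from planar polarity, had 194, 202 and 146 CPM in room air and 148, 124 and 158 CPM in hyperoxia, with overlapping groups (log2 fold change -0.34, adjusted p = 0.179), and was called lower without room air 3 (adjusted p = 0.0376). Lrp5, the co-receptor, was at 373, 346 and 251 CPM and 434, 356 and 427 CPM (log2 fold change 0.33, adjusted p = 0.234). Lrp6, its relative, was at 113 ± 9.53 and 121 ± 9.23 CPM, with a 95% interval of -0.15 to 0.34 for the log2 fold change. Fzd7 and Fzd8 had log2 fold changes of 0.33 and 0.39 with adjusted p of 0.127 and 0.162. Fzd3, Fzd9 and Fzd10 averaged at most 8.29 CPM and did not pass.

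The order of the receptors per exon length was compared next. In room air Fzd4 led with 56.3 ± 8.95 CPM per kb, ahead of Fzd6 (37.6 ± 6.29 CPM per kb) and Lrp5 (33.2 ± 6.58 CPM per kb), which lay within their spread of each other. Fzd1 (12.6 ± 1.02 CPM per kb) and Fzd2 (11.3 ± 1.81 CPM per kb) came next and were not apart beyond their spread. In hyperoxia Lrp5 (41.7 ± 4.46 CPM per kb) and Fzd4 (41.5 ± 6.0 CPM per kb) were level, and Fzd2 (31.3 ± 4.27 CPM per kb) reached the level of Fzd6 (29.8 ± 3.65 CPM per kb). Fzd1 followed with 22.3 ± 4.6 CPM per kb.

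**Figure D2:**
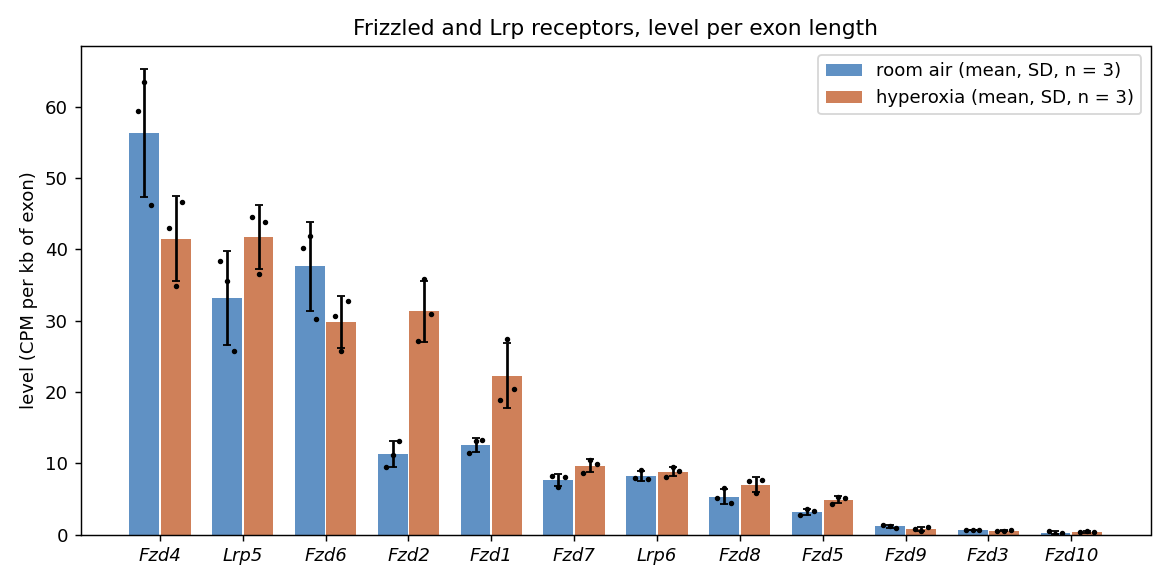
Level of the 10 Frizzled and 2 Lrp receptor genes in CPM per kb of exon (vertical axis, from 0) in room air and hyperoxia; bars are means of 3 libraries, error bars SD and dots libraries. Fzd2 goes from 11.3 to 31.3 CPM per kb and Fzd1 from 12.6 to 22.3 CPM per kb, while Fzd4, at 56.3 and 41.5 CPM per kb, has overlapping groups.

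Inhibitors moved in opposite directions. Of the 7 tested, 1 rose, 1 fell and 5 did not pass, where 11.2% of all genes tested were called. Wif1, which binds Wnts in the extracellular space, stood at 83.8, 109 and 87.2 CPM in room air and 26.8, 16.6 and 25.8 CPM in hyperoxia. The highest hyperoxia library was far below the lowest room air library, and hyperoxia 2 was the lowest of all (4.04-fold lower, log2 fold change -2.01, SE 0.18, adjusted p = 0.000182). Under the 17 alternative settings its log2 fold change ran from -2.51 to -1.82. Sfrp2, a decoy that carries a Frizzled-like domain, went the other way, from 22.6, 8.19 and 14.6 CPM to 28.5, 35.3 and 32.9 CPM (log2 fold change 1.09, SE 0.28, adjusted p = 0.0323). Room air libraries differed widely for this gene, and 16.1% of its exonic bases overlap Gm26771. Leaving out any library but room air 1 ended the call, with adjusted p of 0.0527 (room air 2), 0.111 (room air 3), 0.0551 (hyperoxia 1), 0.142 (hyperoxia 2) and 0.0877 (hyperoxia 3). So did leaving out both hyperoxia 2 and room air 3 (0.319). With hyperoxia 2 as the only hyperoxia library, the log2 fold change was 1.22 by a term for Y-linked reads (0.0899) and 1.20 on the 4 libraries with such reads (0.194).

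Frzb, another decoy of this family, was at 0.629, 0.561 and 0.507 CPM in room air and 1.58, 2.55 and 1.02 CPM in hyperoxia. The groups did not overlap at these low levels, and the log2 fold change of 1.59 (SE 0.49) had an adjusted p of 0.0612. Sfrp1, of the same family, had 14.1 ± 4.47 and 20.4 ± 0.944 CPM (log2 fold change 0.53, adjusted p = 0.131) and was called higher without room air 1 (adjusted p = 0.0183). Dkk3 had 23.9 ± 2.14 and 30.9 ± 5.99 CPM (log2 fold change 0.37, adjusted p = 0.159). A term for Y-linked reads, which leaves hyperoxia 2, its highest library, alone against room air, gave a log2 fold change of 0.65. On the 4 libraries with such reads it was 0.63. Dkk2, a ligand of Lrp5 and Lrp6 that keeps them from Wnts, had 8.79 ± 1.12 and 6.7 ± 1.21 CPM (log2 fold change -0.39, adjusted p = 0.283). Kremen1, a receptor of Dkk proteins, stood at 59.2 ± 9.31 and 62.9 ± 3.14 CPM, with a 95% interval of -0.19 to 0.36. Dkk1 and Sfrp5 were under the filter, with at most 8 reads in any library.

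**Figure D3:**
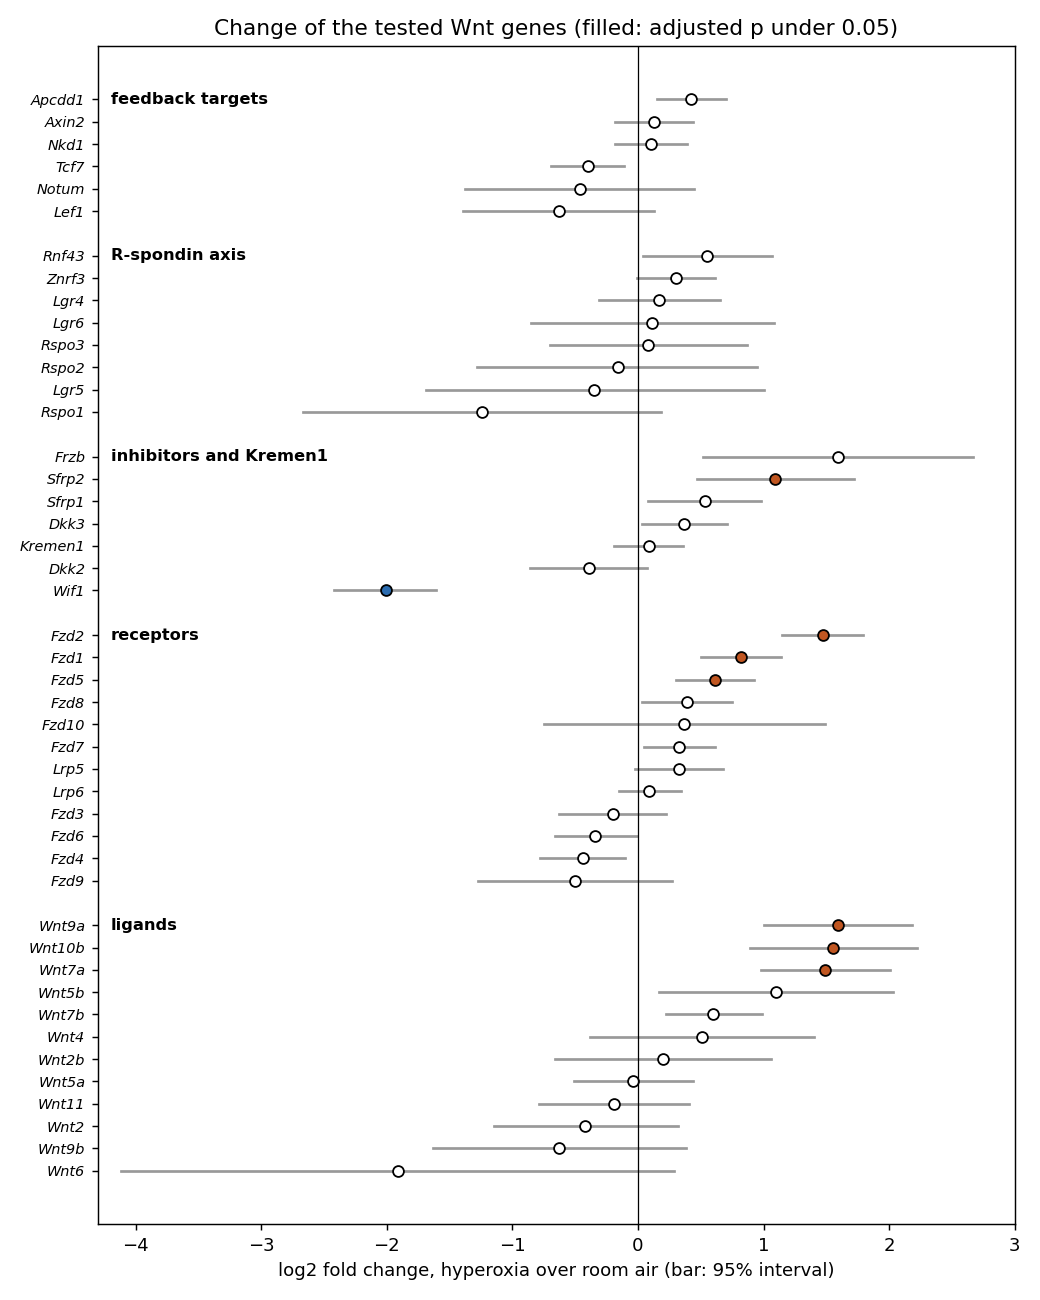
Log2 fold change, hyperoxia over room air (horizontal axis), with its 95% interval for the 45 Wnt genes tested, grouped by role; filled points passed an adjusted p of 0.05. The 8 filled points are 3 ligands, 3 receptors and 2 inhibitors, with Wif1 at -2.01 as the only filled point below 0.

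In the R-spondin axis, 0 of 8 genes were called by edgeR, 1 had an unadjusted p below 0.05, and DESeq2 and limma-voom called 0. That gene was Rnf43, a ligase that removes Frizzleds, at 9.27, 11 and 16.8 CPM in room air and 15, 22.4 and 17.1 CPM in hyperoxia. Its groups overlapped (log2 fold change 0.55, SE 0.23, adjusted p = 0.167), and it was called higher without room air 3 (adjusted p = 0.0285). Znrf3, the related ligase, had 19.6 ± 2.13 and 24.1 ± 2.58 CPM (log2 fold change 0.30, adjusted p = 0.221). Lgr4, an R-spondin receptor, was at 6.95 ± 0.244 and 7.82 ± 1.75 CPM (log2 fold change 0.17, adjusted p = 0.679). The ligands Rspo1, Rspo2 and Rspo3 had group means of 2.09 CPM or less, the receptors Lgr5 and Lgr6 of 5.53 CPM or less, and none of them passed. Intervals were wide at such levels: that of Rspo1 ran from -2.67 to 0.18, and that of Rspo3 from -0.70 to 0.87. With 11.2% of all genes tested called, 0 of 8 does not set this axis apart from other genes.

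Feedback genes, which beta-catenin switches on and most of which damp the pathway, did not pass either, nor did the TCF/LEF factors listed with them. Of Axin2, Notum, Apcdd1, Nkd1, Lef1 and Tcf7, edgeR called 0, 2 had an unadjusted p below 0.05, DESeq2 called 1 higher and 1 lower, and limma-voom called 0. Since edgeR called 11.2% of all genes tested, 0 calls among so few does not set these genes apart from others. Axin2, the scaffold protein widely used as a readout of beta-catenin signalling, stood at 24.1, 29.9 and 22.1 CPM in room air and 25.8, 30.0 and 27.4 CPM in hyperoxia. The libraries of both groups were mixed, and the 95% interval of the log2 fold change was -0.18 to 0.44. Nkd1, an inhibitor of Dishevelled, was at 316, 319 and 254 CPM and 339, 291 and 323 CPM, also mixed (95% interval -0.18 to 0.39). At 65 ± 8.11 CPM per kb in room air it had the highest mean of the 50 genes per exon length, with Fzd4 (56.3 ± 8.95 CPM per kb) and Tcf7 (53.4 ± 4.59 CPM per kb) within the spread.

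Apcdd1 and Tcf7 were the 2 with an unadjusted p below 0.05, in opposite directions. Apcdd1, a membrane-bound inhibitor, had 79.8, 84.0 and 61.5 CPM in room air and 105, 96.7 and 101 CPM in hyperoxia. Its groups did not overlap, and the log2 fold change was 0.42 (SE 0.13, adjusted p = 0.0553). Tcf7, a TCF/LEF factor, had 154, 131 and 136 CPM in room air and 124, 90.5 and 103 CPM in hyperoxia, again without overlap (log2 fold change -0.40, SE 0.13, adjusted p = 0.0782). Leaving out hyperoxia 1 made Tcf7 a lower call (adjusted p = 0.0436), as did DESeq2 (0.03), library size only (0.0476) and no filter (0.0266). A term for Y-linked reads, which leaves hyperoxia 2, its lowest library, alone against room air, gave a log2 fold change of -0.63. On the 4 libraries with such reads it was -0.66. Apcdd1 was called higher by DESeq2 (adjusted p = 0.0304), with library size only (0.0433), with no filter (0.0145) and with a filter of 1 CPM (0.0435). Lef1, the relative of Tcf7, varied within both groups, at 11.7, 5.89 and 15.4 CPM and 6.18, 10.1 and 5.08 CPM (log2 fold change -0.63, adjusted p = 0.295). Notum, an enzyme that strips the lipid from Wnts, averaged 1.92 and 1.4 CPM, and 38.1% of its exonic bases overlap Myadml2os or Notumos.

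Beyond the 50 genes, 71 further symbols of the pathway were looked up, 70 were matched and 62 were tested. Of these, 10 rose, 2 fell and 50 did not pass, which is 19.4% called beside the 11.2% of all genes. The count was 5 without room air 2 and 6 without hyperoxia 3. The symbols were chosen with earlier results of these data known, so the share called is a description and not a test. Wnt3a, a ligand that signals through beta-catenin, rose from 6.58, 8.39 and 9.32 CPM to 21.2, 23.3 and 18.9 CPM. Every hyperoxia library was at least 2 times the highest room air library (log2 fold change 1.38, SE 0.17, adjusted p = 0.000949). Wls, the carrier that brings Wnts to the cell surface, had 213, 218 and 218 CPM in room air and 291, 307 and 305 CPM in hyperoxia. Libraries lay close together within each group (log2 fold change 0.47, SE 0.10, adjusted p = 0.0149). On leaving out room air 1 or hyperoxia 3 the adjusted p became 0.0538 and 0.083, so Wls no longer passed. On the 4 libraries with Y-linked reads, where hyperoxia 2 is the only hyperoxia library, the log2 fold change was again 0.47. Porcn, the enzyme that attaches the lipid, was at 12.2 ± 1.09 and 17.1 ± 1.64 CPM (log2 fold change 0.49, adjusted p = 0.0659). Gpc4, a cell-surface proteoglycan, rose as well (log2 fold change 0.70, adjusted p = 0.026), a call that leaving out room air 1 (0.0929), room air 2 (0.0995), hyperoxia 2 (0.066) or hyperoxia 3 (0.0726) ended.

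Of 12 genes of the beta-catenin-independent branch, 3 rose, 2 fell and 7 did not pass. Of all genes tested, 11.2% were called (6.77% higher and 4.41% lower). Daam2, a formin that binds Dishevelled, rose from 25.4, 32.5 and 39 CPM to 66.5, 84.0 and 71.5 CPM (log2 fold change 1.20, SE 0.16, adjusted p = 0.00123). Celsr2, a planar polarity cadherin, fell from 80.1, 93.8 and 60.3 CPM to 40.2, 38.9 and 47.8 CPM (log2 fold change -0.88, SE 0.16, adjusted p = 0.00538). For both, the groups were apart. Celsr1, the relative of Celsr2, rose (log2 fold change 0.60, adjusted p = 0.0133). Its call was lost on leaving out room air 2 (0.0599) or hyperoxia 3 (0.0702), among others, and held under 13 of the 17 alternatives. Vangl2, a polarity membrane protein, fell (log2 fold change -0.63, adjusted p = 0.0349), unless room air 1 (0.112), room air 2 (0.105), hyperoxia 2 (0.0691) or hyperoxia 3 (0.0766) was left out. Ptk7, a Wnt co-receptor, rose by a log2 fold change of 0.44 (adjusted p = 0.0362). This call held with room air 1 left out, and with any other library left out the adjusted p was 0.0781 to 0.126. It held under 8 of the 17 alternatives.

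Transduction inside the cell did not pass at any of the 10 genes tested: edgeR, DESeq2 and limma-voom called 0, and 2 had an unadjusted p below 0.05. Ctnnb1, the gene for beta-catenin, was at 1038, 1012 and 867 CPM in room air and 984, 870.3 and 1021 CPM in hyperoxia, with a 95% interval of -0.32 to 0.28. Of 11 nuclear partners edgeR and limma-voom called 0, DESeq2 called 1 lower, and 2 had an unadjusted p below 0.05. Of the 4 genes of the endothelial co-receptor complexes all 3 tools called 0, and 0 had an unadjusted p below 0.05. Among these, Adgra2 and Reck, the partners through which endothelium receives Wnt7 proteins, were at 383 ± 91 and 32.4 ± 2.68 CPM in room air, against 351 ± 50.5 and 32.3 ± 2.77 CPM in hyperoxia. Tspan12, the partner of Fzd4, was at 118 ± 2.21 and 127 ± 9.81 CPM, and Ndp, the norrin gene, at 0.737 ± 0.209 and 0.526 ± 0.238 CPM. As 11.2% of all genes tested were called, 0 edgeR calls in each of these short lists does not set them apart from other genes.

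Of 12 other reported target genes, 4 rose and 8 did not pass, where 11.2% of all genes tested were called. Myc, which drives growth, rose from 24.4 ± 3.62 to 42.7 ± 7.58 CPM (log2 fold change 0.81, adjusted p = 0.0089). Ccnd1, which codes for cyclin D1, was at 240.3 ± 36.4 CPM in room air and rose to 361 ± 22 CPM (log2 fold change 0.59, adjusted p = 0.0171). Its call was lost on leaving out room air 2 (0.0761) or hyperoxia 3 (0.0895), among others, and held under 13 of the 17 alternatives. In addition, 23.4% of its exonic bases overlap another gene, LTO1. The glucose transporter gene Slc2a1 (log2 fold change 0.59, adjusted p = 0.0115) did not pass with room air 2 left out (0.0544). It was called under 14 of the 17 alternatives. Bambi, a decoy receptor gene (log2 fold change 0.54, adjusted p = 0.0154), did not pass with room air 2 (0.0585) or hyperoxia 1 (0.0541) left out. It was called under 13 of the 17 alternatives. All 4 are known targets of other pathways as well.

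The genes that rose were then set beside the alveolar type 1 markers, library by library. In room air the marker sum was lowest in library 1 and highest in library 3, and Wnt7a, Wnt9a, Wnt10b, Fzd1 and Fzd2 had their lowest and highest room air levels in the same libraries. In hyperoxia the marker sum was highest in library 2, as were all 7 genes that rose. This order was not particular to type 1 markers. The contractile and pericyte sum had it too (272, 284 and 376 CPM in room air, 538 CPM in hyperoxia 2). Sums of type 2, fibroblast, club and ciliated, and macrophage markers were also highest in room air 3 and hyperoxia 2, where the endothelial sum was lowest. The mesothelial sum was highest in room air 1. Which cells the genes follow was not tested. Wnt7a stood at 2.48, 3.26 and 3.13 CPM per 1000 CPM of type 1 markers in room air 1, 2 and 3 and at 3.92, 3.89 and 3.24 in hyperoxia 1, 2 and 3, so the groups overlapped on that scale. Wnt10b (3.59 ± 1.18 and 4.81 ± 0.199) and Sfrp2 (6.25 ± 3.78 and 5.66 ± 0.525) overlapped too.

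Wnt9a (1.23 ± 0.0348 and 1.6 ± 0.289) and Fzd2 (16.4 ± 0.472 and 20 ± 1.28) remained higher in every hyperoxia library per 1000 CPM of type 1 markers, by 1.31 and 1.22 times on average. Fzd1 (21.2 ± 2.35 and 16.2 ± 0.87) and Fzd5 (8.92 ± 1.43 and 5.96 ± 0.71) were lower in every hyperoxia library on that scale. Wif1, whose fall runs against the marker sum, was 8.99-fold lower on it. Per 1000 CPM of the 12 endothelial markers, all 7 genes that rose stayed higher in every hyperoxia library, by 1.84 (Fzd5) to 3.69 times (Wnt9a), and Wif1 stayed lower in every library, by 3.43-fold. How much of each change comes from the cells that carry type 1 markers was not tested.

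Of other marker lists, those of endothelial subtypes moved in both directions: 3 of 7 general capillary markers fell, 2 of 6 aerocyte markers rose and 1 fell, and 2 of 5 venous and 2 of 6 lymphatic markers rose. Of 7 alveolar type 2 markers and 8 contractile and pericyte markers 0 were called by edgeR, and their medians were -0.07 and 0.24. In these lists 2 and 0 markers had an unadjusted p below 0.05, and DESeq2 called 1 type 2 marker lower. With 11.2% of all genes tested called, 0 of 7 and 0 of 8 do not set these markers apart from other genes. Of 9 fibroblast markers 1 rose, Npnt, from 229.5 ± 38.1 to 555 ± 92.5 CPM, which is most of the difference in their summed level (915 to 1275 CPM in room air and 1235 to 1811 CPM in hyperoxia). Their median log2 fold change was 0.21, and Pdgfra had -0.75 (adjusted p = 0.0803). Of 4 mesothelial markers 1 rose, Msln, from 40.6 ± 2.36 to 137 ± 25.6 CPM. The median of these 4 was -0.46, with Lrrn4 at -1.66 (adjusted p = 0.121) and Upk3b at -0.95 (adjusted p = 0.117), and DESeq2 called 2 lower. Of 6 macrophage markers 2 rose and 1 fell, and of 5 club and ciliated markers 1 rose. The part of these cells in the Wnt values was not tested.

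**Figure D4:**
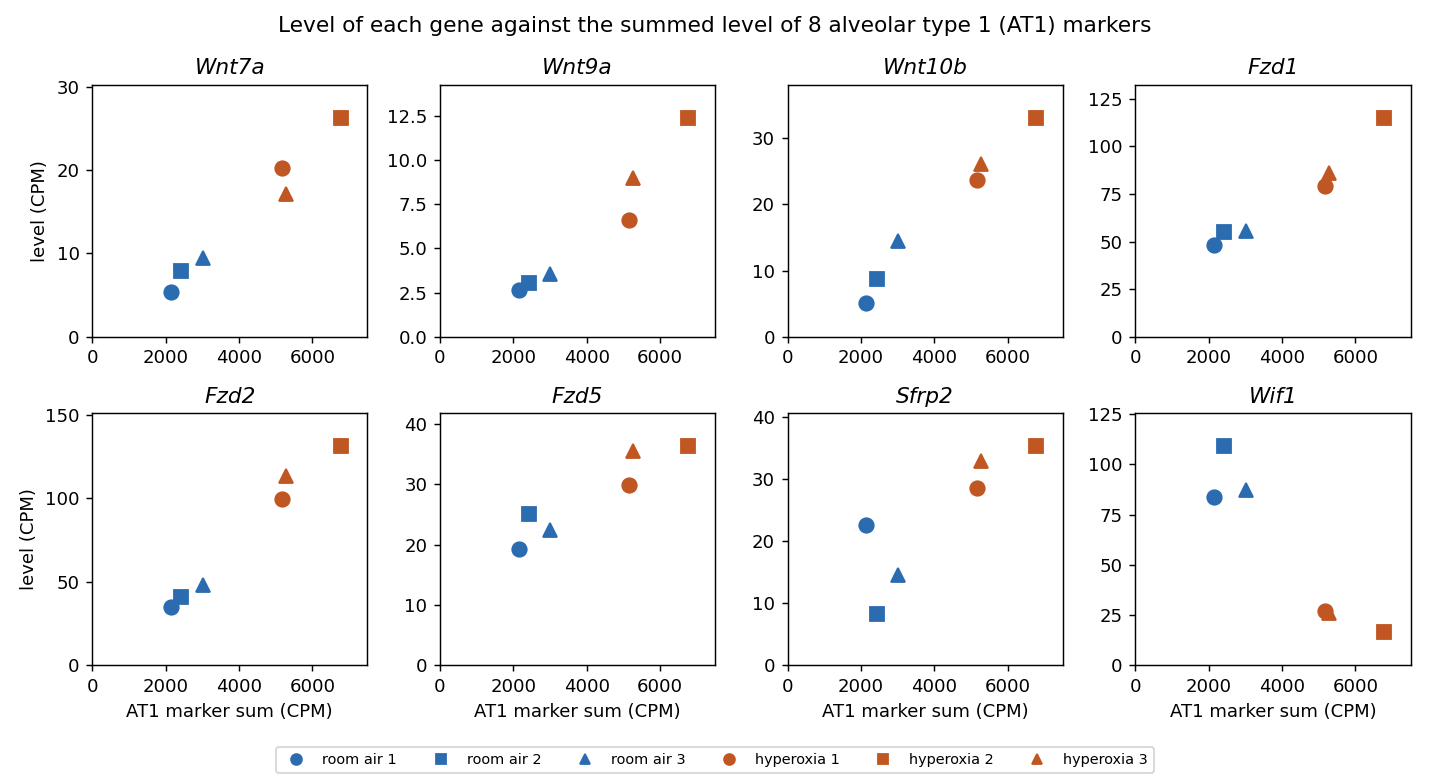
Level in CPM of each of the 8 called Wnt genes (vertical axes, from 0) against the summed CPM of 8 alveolar type 1 markers in the same library (horizontal axes); a symbol is a library. The sums are 2145 to 3010.4 CPM in room air and 5163 to 6772 CPM in hyperoxia, and hyperoxia 2 is highest for the 7 genes that rose and lowest for Wif1.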

How the data were processed

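The deposited values are the authors' raw counts per Ensembl gene ID. Per the submitters' processing notes, the tools named were HISAT2 2.2.1, Subread 2.0.6, featureCounts and DESeq2, and the build was GRCm39; their roles are not stated. Annotation, strand setting and handling of multimapping reads are likewise not given in the sources used here, so counts of overlapping genes are uncertain. Sample titles gave each library its group and number. Symbols were matched by ID (51948 of 56941 IDs), and exon lengths and overlaps came from GENCODE M21 on GRCm38.

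Genes were kept by filterByExpr (minimum count 10, minimum total 15; for these libraries 0.251 CPM in 3), scaled by TMM and tested with edgeR 4.0.16 (R 4.3.3) by the robust quasi-likelihood test of hyperoxia over room air without covariates. Adjustment was by Benjamini-Hochberg over 17072 genes, with a threshold of 0.05. Levels are CPM after TMM. Standard errors divide the log2 fold change by the root of F, and 95% intervals follow from them; both are approximate. No library was a duplicate of another (chi-square over its degrees of freedom 14.1 or more within groups). Tested on simulated data for this comparison (17072 genes, 200 changed), the script recovered 75% of 100 genes changed by a log2 of 1 and 93% of 100 genes changed by 2, with 8 false calls among 176. The changed genes were drawn from those with a mean above 1 CPM, so this recovery does not cover genes at lower levels.

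All genes called are named, with the 3 highest uncalled members of each role. The members and lists were chosen with earlier results of these data known. Alternatives used DESeq2 1.42.0, limma 3.58.1, other scalings and filters, a replicate block, a term for Y-linked reads and each library left out. After seeing the data, fits with Y-positive libraries alone and without hyperoxia 2 and room air 3 were added. Ratios to marker sums and the motif search were description only.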

Additional observations from a re-analysis of the deposited data

How the results depend on the processing

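The 7 higher and 1 lower Wnt genes came from 6 libraries, and low-count genes have wide intervals. With no filter on low counts 12 were higher and 3 lower. The higher genes numbered 10 by DESeq2, 10 with a filter of 1 CPM, 8 with library size only and 8 by limma-voom. The lower genes numbered 2 with library size only, 3 by DESeq2, 4 without hyperoxia 2 and room air 3, and, in the fits where hyperoxia 2 is the only hyperoxia library, 5 with a term for Y-linked reads and 2 with the libraries that hold Y-linked reads alone. With a library left out in turn, the higher genes ran from 5 to 8, the lower from 1 to 3, the other pathway genes called from 5 to 13 (12 with all libraries) and all genes called from 1057 to 1844 (1909 with all libraries). Of all genes, 1057 were called without room air 2 and 1143 without hyperoxia 3, and the lower Wnt genes were 3 without room air 3 and 2 without hyperoxia 1. Libraries of the same replicate number had correlations of deviations of 0.112, -0.039 and -0.09, within the range of the other pairs (-0.122 to 0.147). With 3 libraries per group, such values cannot exclude a pairing. With the replicate block the counts were 7, 1, 10 and 1395, and Wls (adjusted p = 0.0564) and Ptk7 (0.077) were not called. Wnt7a, Wnt9a, Fzd1, Fzd2 and Wif1 passed under all 17 alternatives, Wnt10b under 16, Fzd5 under 12 and Sfrp2 under 9. Of the Wnt genes not called, only the 3 highest of each role were followed singly through the alternatives. Sign changes at the others were not looked at. The log2 fold change turned its sign at 4 genes that were not called: Wnt5a (0.33 with a term for Y-linked reads, 0.06 without room air 2, 0.05 without hyperoxia 1, 0.06 without hyperoxia 3, against -0.26 without hyperoxia 2, 0.30 with the libraries that hold Y-linked reads alone), Wnt11 (0.23 with a term for Y-linked reads, 0.20 with the libraries that hold Y-linked reads alone), Kremen1 (-0.01 without room air 3 against 0.21 without room air 2, -0.06 without hyperoxia 2 and room air 3) and Nkd1 (-0.03 with a term for Y-linked reads, -0.002 without room air 3 against 0.16 without room air 2, -0.05 with the libraries that hold Y-linked reads alone). The Y-linked values are those of hyperoxia 2 against room air, given by both fits. The cause was not tested.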

Other observations

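Several Wnt genes lie next to each other in the genome. Of the 19 Wnt genes looked up in the RefSeq gene order (GRCm38.p6), 4 pairs were direct neighbours among protein-coding genes. Wnt3a and Wnt9a, neighbours on chromosome 11, both rose, from 8.1 ± 1.39 to 21.1 ± 2.17 CPM (log2 fold change 1.38, edgeR adjusted p = 0.000949) and from 3.09 ± 0.457 to 9.32 ± 2.9 CPM (log2 fold change 1.59, adjusted p = 0.00393; mean ± SD, n = 3 per group). Wnt10b rose as well, while its neighbour on chromosome 15, Wnt1, was at 0.0161 CPM in room air and without a read in hyperoxia. Wnt9b (log2 fold change -0.63, adjusted p = 0.439) lies beside Wnt3, and Wnt6 (log2 fold change -1.91, adjusted p = 0.269) beside Wnt10a, and in both pairs the second gene was under the count filter. These pairs were looked at after the values were seen.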
